A study of Mus musculus with 3 samples.

Results

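Most protein-coding genes of the mouse are spliced from several exons, but a minority are transcribed as 1 uninterrupted exon. The histone mark H3K36me3, histone H3 trimethylated at lysine 36, was examined in these single-exon genes in regulatory T (Treg) cells. A gene was taken as a member if it was an autosomal protein-coding gene of the GENCODE M21 annotation, if each of its annotated transcripts had exactly 1 exon, and if the midpoint of at least 1 H3K36me3 peak lay in its body and in no other coding gene. Of 1161 autosomal single-exon coding genes, 46 met this rule, out of 9038 autosomal coding genes of any kind with a peak so placed. The 46 genes held 69 of the 120910 peaks.

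The measurement was chromatin immunoprecipitation sequencing (ChIP-seq) of H3K36me3 with an antibody from Active Motif. Treg cells, sorted as CD3+CD4+Foxp3-YFP+ cells, were taken from spleen and large intestine (LI) of adult C57BL/6 mice at steady state. The mice carried Foxp3Cre-YFP, in which the promoter of Foxp3, the gene that defines the Treg lineage, drives a Cre recombinase fused to a yellow fluorescent protein, and the labels name this genotype for both tissues. Cells of 7 males and 7 females were combined, equal amounts of chromatin entered each immunoprecipitation, and there was 1 library per tissue, so no difference between the tissues has a replicate check and no test between them was possible. The input library, made from chromatin of splenic Treg cells, was not analysed here.

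H3K36me3 is laid down by the methyltransferase Setd2, which travels with RNA polymerase II during elongation, and the mark is therefore found over the bodies of transcribed genes. It usually builds up away from the start of the gene, and it has been linked to splicing and to the exon and intron structure of the gene. Single-exon genes include the replication-dependent histones, the sensory and many other G protein coupled receptors, type I interferons, and several immediate early genes whose transcripts are made and lost quickly.

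The values are mean RPKM over a peak, read coverage per kilobase scaled for sequencing depth, and the step size of the values corresponds to about 29600000 mapped reads in the spleen library and 38100000 in the LI library. The markers of Treg cells (Foxp3, Cd3e, Cd4, Il2ra, Ctla4 and Ikzf2) all had peaks and together reached 1768 RPKM in spleen and 1464 RPKM in LI. Such sums grow with the number of peaks, and Ikzf2 alone, with 115 peaks, gave 1205 and 851 RPKM of them. Of 6 markers each, 3 of B cells, 1 of myeloid cells and 2 of intestinal epithelium had a peak. The B cell markers summed to 60.2 and 53.4 RPKM in spleen and LI, the myeloid markers to 14.7 and 16.3 RPKM, and the epithelial markers to 29.9 and 59.8 RPKM. Most of the B cell sum came from Cd79a, with 47.2 and 29.8 RPKM over 4 peaks. This was not far from Cd3e, with 51.8 and 40.1 RPKM over 3 peaks, so the sums do not measure the share of other cells. Cd3e and Cd4, though listed with the Treg markers, are shared with conventional CD4+ T cells. The epithelial sum was thus higher in LI, and its part in the values of the single-exon genes was not tested.

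What the marked stretches look like is shown by 30 bases from the coding part of the strongest peak that held coding sequence, in 6 members, written 5′ to 3′ on the strand of the gene, with G and C in capitals. They were picked after the values were seen, from the GC-rich peaks that most members had to the AT-richer peaks of Pigm and Gpr15. A window of 30 bases need not have the GC content of its peak. The Gpr15 window had 53.3% G and C against 45.4% in the peak, and the Jund window 56.7% against 68.9%. In mm10 they lie at chr12:86882288-86882317 (Irf2bpl), chr8:70699888-70699917 (Jund), chr7:118490219-118490248 (Itpripl2), chr2:168231535-168231564 (Mocs3), chr16:58718089-58718118 (Gpr15) and chr1:172377812-172377841 (Pigm).
Irf2bpl: GGaGCCtCCaGaCtCaGCtGaaaGCGCaCt
Jund: CaaatGCCGCaaGCGCaaGCtGGaGCGtat
Itpripl2: CaGGaaCGGGCGCCtCCaGGtGCCtGCtat
Mocs3: GGGCaGCaGCCCaCCGtGaCCCGCCtGCaG
Gpr15: aCCtttttCGtCCCCCtCCtGaGCattGtG
Pigm: CtGGCtCCtGCatatGttCtaGaGtttCaa

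Few single-exon genes carried the mark. A peak was found in 46 of 1161, or 3.96% (95% Wilson interval 2.98 to 5.24%), against 45.8% of the 19646 multi-exon genes. Single-exon genes are short, with a median length of 1067 bp against 19494 bp, so each was set beside the multi-exon genes within 10% of its own length. Of those, 12.2% had a peak. For 21 single-exon genes no multi-exon gene of like length existed. This comparison describes 1 set of peaks and was not tested, and in these bulk cells, fewer cells carrying the mark and less mark per cell cannot be told apart.

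From 2 exons upwards, the share of genes with a peak rose with exon number in every length class over 1 kb, as the plot of genes with a peak by length and exon number shows. Among genes of 2 to 3 kb it was 6.71% with 1 exon (10 of 149), 13.5% with 2 exons, 20.1% with 3 exons and 40.9% with 6 to 10 exons. Genes without an intron stood lowest here, though their interval (3.69 to 11.9%) overlapped that of genes with 2 exons (9.19 to 19.5%). Among genes of 3 to 5 kb, the share was 11.97% with 1 exon (7.26 to 19.1%) and 11.8% with 2 exons (9.01 to 15.3%), while genes with over 10 exons reached 59.1%. At 5 to 10 kb it was 14.3% (6.26 to 29.4%) with 1 exon and 9.50% (7.44 to 12.1%) with 2 exons. Without near-identical and sensory families the order of these last shares turned, to 14.3% with 1 exon against 19.8% with 2 exons at 3 to 5 kb, and to 19.2% against 24.9% at 5 to 10 kb, again with overlapping intervals. At 1 to 2 kb the shares were 3.98% with 1 exon and 4.74% with 2 exons. Among genes of up to 1 kb, 3 of 507 single-exon genes had a peak, or 0.592%.

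**Figure D1:**
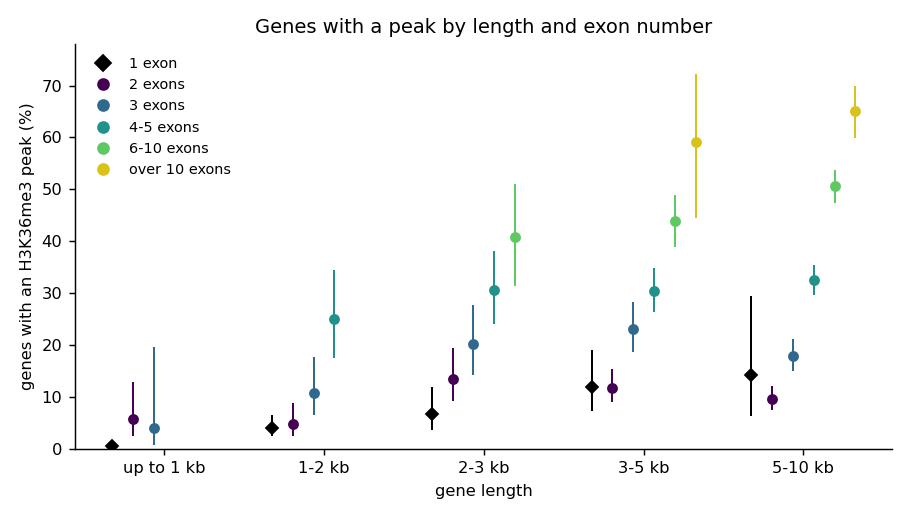
Share of autosomal coding genes with at least 1 H3K36me3 peak (y axis, %) in 5 classes of gene length (x axis), by exon number (colours, black diamonds for 1 exon), with 95% Wilson intervals and only for classes of at least 20 genes. Among genes of 3 to 5 kb the share rises from 11.97% with 1 exon and 11.8% with 2 exons to 59.1% with over 10 exons.

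Several families of single-exon genes were without the mark. Family genes with a transcript of more than 1 exon are not in the family counts. None of the 107 olfactory, 64 vomeronasal, or 49 taste and trace amine receptor genes had a peak, and neither did the 17 type I interferon genes, the 53 keratin-associated and cornified envelope genes or the 18 protocadherins. The 62 clustered histone genes, which are highly transcribed in dividing cells, held no peak by the rule, and 1 of them was overlapped by a peak. This was Hist3h2a, whose peak also lay in Trim17. Some of these families hold near-identical copies, to which short reads often cannot be assigned, and the part of this in the missing peaks was not tested. Without these families and H2afx, a lone histone gene removed with them, 45 of 791 single-exon genes had a peak, or 5.69% (4.28 to 7.53%), against 15.5% of multi-exon genes of like length outside the same families.

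Of the 9 single-exon genes in a list of immediate early and AP-1 factors, 4 had a peak (Ier5, Ier5l, Jun and Jund). This was 44.4% (18.9 to 73.3%) beside 3.96% of all single-exon genes. In the length classes of these 4 genes, 1 to 2, 2 to 3 and 3 to 5 kb, it was 3.98%, 6.71% and 11.97%. The list was drawn up with earlier results of these data known, so its share is no evidence of enrichment. Of 23 G protein coupled receptor genes outside the sensory families, 3 were members (Gpr15, Gpr151 and S1pr4). That list went by the start of the symbol and left out Gpbar1, a further receptor of this kind among the members. The heat shock list gave 1 of 7 (Hspb9), the BTB, kelch and zinc finger list 1 of 5 (Klhl9), and the developmental factors 1 of 27 (Foxd2). None of 12 mitochondrial and translation genes was a member. The other 36 members were outside these lists, and they included H2afx, the histone variant phosphorylated at DNA breaks, which is not part of the histone clusters.

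A further 46 single-exon genes were overlapped by a peak without meeting the rule. In 25 of them a midpoint lay inside the gene but also inside another coding gene, in the other 21 no midpoint lay inside, and 42 of the 46 shared their body with another coding gene. Among those outside, 10 genes were covered in full. Amigo3 was one of them, covered by a 19865-bp peak over Rnf123 (28.3 RPKM in spleen and 29.0 RPKM in LI at the highest peak). Gm10197, within Mxi1, and AC170998.1, within Mapk14, were others, under peaks of 1789 and 3105 bp. Among the members, Cited4, Nanos1 and Map10 had the least signal, with 1 peak each of 244, 238 and 200 bp that lay wholly inside the gene. The other 1069 single-exon genes had no overlapping peak.

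Members were not typical of single-exon genes in length. Their median was 2629 bp, from 624 bp (Gm9887) to 8319 bp (Purb), against 1039 bp for single-exon genes without a peak. The number of peaks per member was close to that of multi-exon genes of like length. Of the 46, 29 had 1 peak, 13 had 2, 3 had 3 and 1 had 5. More than 1 peak was seen in 37.0% of the members and in 35.8% of the multi-exon genes of like length, with means of 1.5 and 1.53 peaks.

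The member with 5 peaks was Pigm, which encodes the mannosyltransferase of glycosylphosphatidylinositol (GPI) anchor synthesis. Its peak midpoints lay from 17.1% to 64.0% of the way along the gene (chr1:172376546-172384099, plus strand). The peaks were 200 to 1008 bp long, and averaged 8.45 RPKM in spleen and 9.27 RPKM in LI. Within this gene the balance of the tissues changed along its length. The second peak and the third had 9.21 and 9.18 RPKM in spleen against 4.67 and 4.25 RPKM in LI, and the last peak had 5.83 RPKM in spleen against 10.8 RPKM in LI. These single peaks rest on few reads, and the difference between them was not tested. Counts of 3 peaks were found in Ado, a thiol dioxygenase gene (9.41 RPKM in spleen and 7.89 RPKM in LI), in Riox1, a ribosomal oxygenase gene (9.40 and 9.92 RPKM), and in Purb, which encodes a protein binding purine-rich DNA (8.21 and 9.41 RPKM).

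By the midpoint rule the median marked stretch was narrower in the members, though members lay on both sides of their own length groups in not far from equal numbers. The median peak width was 423 bp over the members and 655 bp in multi-exon genes of like length, with 26 of 46 members below the median of their own length group. The difference was smaller where at least 50% of a peak had to lie in the gene, with 417 bp (343 to 553 bp) against 508 bp and 20 of 43 members below. For the longest peak of the gene the medians were 532 bp and 800 bp, with 28 members below. For the summed length of a gene's peaks they were 649.5 bp and 992 bp, with 25 members below. Coverage of the body counted every peak that overlapped it, including peaks assigned to neighbouring genes. It was 33.9% at the median in members and 51.0% in multi-exon genes of like length, with 31 members below. The spread among members was wide, from 4.89% in Tigd5 to 99.7% in Gpbar1.

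Median signal within the peaks was also lower than in multi-exon genes of like length, more clearly in spleen than in LI. The mean value over the peaks of a member was 9.40 RPKM in spleen at the median (0 to 25.2 RPKM). It was 13.4 RPKM in multi-exon genes of like length, and 36 of 46 members lay below (78.3%, 64.4 to 87.7%). In LI it was 12.01 RPKM (3.14 to 29.9 RPKM) against 14.4 RPKM, and 27 of 46 members lay below. The interval of this LI share, 44.3 to 71.7%, includes an even split. The GC content of the peaks also differed, with a median of 61.9% in members and 54.3% in multi-exon genes of like length, and 35 of 46 members above. Over all genes the ratio of LI over spleen rose with GC content, and its part in the unlike result of the 2 tissues was not tested. Spread over the whole gene body, again with every overlapping peak counted, members had 3.14 RPKM (spleen) and 3.52 RPKM (LI), compared with 7.39 and 8.27 RPKM. The groups of like length held between 1 and 386 genes, with a median of 78.

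**Figure D2:**
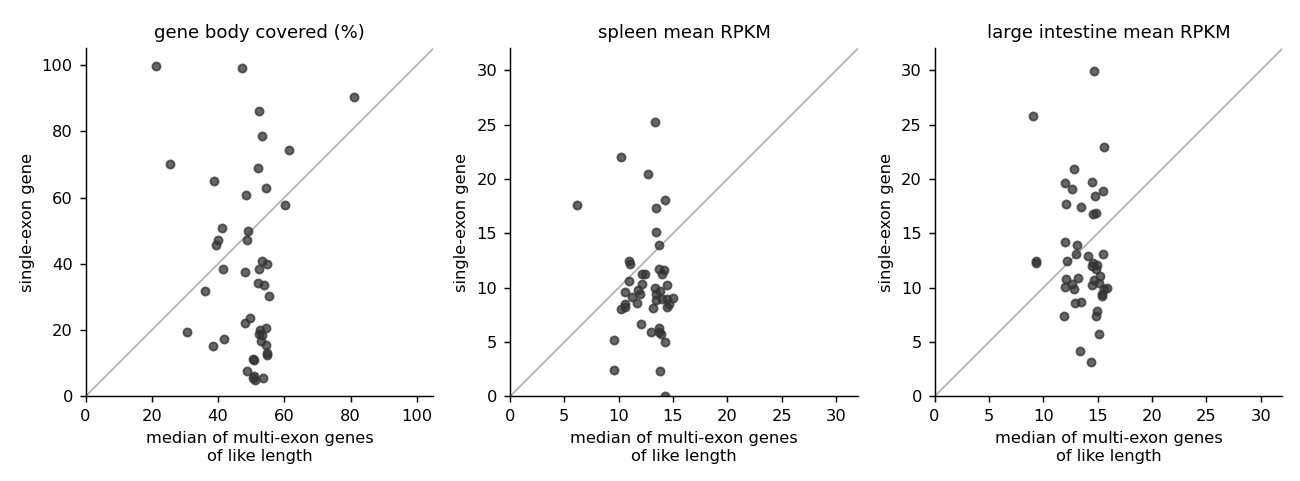
Each of 46 points is a single-exon gene (y axis) against the median of multi-exon genes with a peak and of like length (x axis). Panels show the percent of the gene body covered by any peak, the mean RPKM in spleen and the mean RPKM in LI, with a line of equal values. Below the line lie 31 genes for coverage, 36 for spleen and 27 for LI.

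Peak width, coverage and signal were higher at many exons than at 1 among the genes of 2 to 5 kb that had a peak. Peak width rose from 409 bp with 1 exon (24 genes) to 679 bp with 2 exons (71 genes), 1052 bp with 6 to 10 exons (198 genes) and 1257 bp with over 10 exons (28 genes), all as medians. The part of the body covered by any peak rose from 19.8% to 38.8%, 60.3% and 68.9%. Spleen values within the peaks went from 9.82 to 12.1, 14.7 and 15.5 RPKM in the same order, and LI values from 10.9 to 15.1, 15.7 and 18.0 RPKM. The steps were not even. Peaks of genes with 3 exons were 607 bp wide, below those with 2 exons, LI values were 13.5 RPKM with 3 exons and 13.3 RPKM with 4 to 5 exons, also below those with 2, and spleen values fell from 13.2 RPKM with 3 exons to 12.6 RPKM with 4 to 5.

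Members also differed in where along the gene their peaks lay. With the gene body cut into 3 equal parts in the direction of transcription, 26 of 69 member peaks had their midpoint in the first part, 27 in the middle part and 16 in the last (37.7%, 39.1% and 23.2%). In 380 multi-exon genes with a length between the quartiles of the members (1646 to 4056 bp), the shares of 580 peaks were 22.9%, 30.5% and 46.6%. The mean position of a gene's peaks lay at 0.451 of the gene length in members and at 0.665 in multi-exon genes of like length, with 36 of 46 members nearer to the start. The bias towards the gene end seen in the multi-exon genes was thus not present in these peaks. Of the base pairs of member peaks, 59.3% lay in coding sequence, 33.4% in 3′ UTR, 2.85% in 5′ UTR and 4.39% outside the gene, while coding sequence made up 40.5%, 3′ UTR 50.5% and 5′ UTR 9.02% of the members' length.

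**Figure D3:**
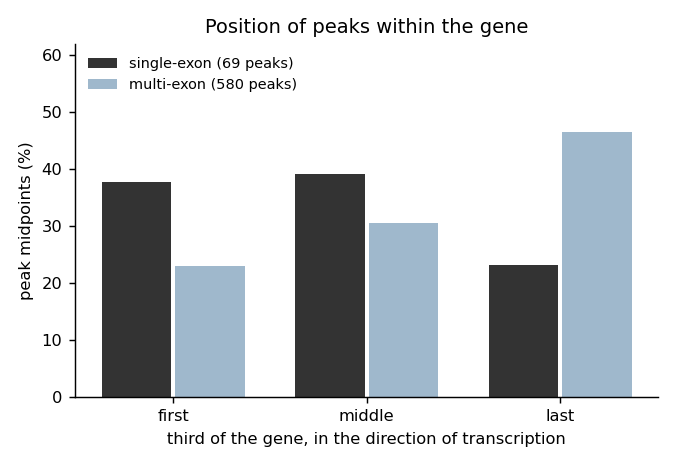
Share of peak midpoints (y axis, %) in the first, middle and last of 3 equal parts of the gene for the 69 peaks of single-exon genes (dark) and the 580 peaks of multi-exon genes of 1646 to 4056 bp (light). The last part holds 23.2% of the former and 46.6% of the latter.

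Fem1a, a substrate receptor of a cullin ubiquitin ligase (chr17:56256810-56263610, plus strand), had the longest member peak, of 5051 bp, which ran from the coding sequence into the 3′ UTR, and 86.1% of its body was covered. Its mean was 18.1 RPKM in spleen and 23.0 RPKM in LI, and the log2 ratio of LI over spleen was 0.35 (approximate 95% counting interval 0.06 to 0.64), and 0.13 (-0.17 to 0.43) after a correction for the GC content of the peaks. Peaks of at least 1 kb, such as this one, occurred in 12 members.

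The related genes Irf2bp1 and Irf2bpl, which encode binding partners of interferon regulatory factor 2, were among the strongest. Irf2bp1 had a 2150-bp peak with 20.5 RPKM in spleen and 19.7 RPKM in LI. Irf2bpl had the highest member values in both tissues, 25.2 RPKM in spleen and 29.9 RPKM in LI, over a 1431-bp peak wholly in coding sequence. The nearest coding gene of Irf2bpl was 62245 bp away. The log2 ratios were -0.10 (-0.42 to 0.23) and 0.20 (-0.15 to 0.54), and both intervals included 0. After the GC correction Irf2bp1 stood at -0.45 (-0.80 to -0.11) and Irf2bpl at -0.16 (-0.53 to 0.20).

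Exoc8, a subunit of the exocyst that tethers secretory vesicles, reached 15.2 RPKM in spleen and 16.7 RPKM in LI. Pcbp1, which encodes a protein that binds poly(C) stretches in RNA, had 22.0 RPKM in spleen and 17.7 RPKM in LI. Hps6, a subunit of a complex for lysosome-related organelles, had 9.97 RPKM in spleen and 12.3 RPKM in LI over a 1705-bp peak. The intervals of these 3 genes included 0, with log2 ratios of 0.21 (-0.16 to 0.58), -0.36 (-0.80 to 0.08) and 0.24 (-0.24 to 0.73). After the GC correction Pcbp1 was at -0.71 (-1.18 to -0.24), on the side of the spleen, and Exoc8 and Hps6 were at 0.019 (-0.36 to 0.40) and -0.11 (-0.62 to 0.40).

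Gpbar1, the cell-surface receptor for bile acids (chr1:74278550-74279624, plus strand), was covered by a single 1230-bp peak with 17.6 RPKM in spleen and 25.8 RPKM in LI. The log2 ratio was 0.50 (0.07 to 0.92), or 1.41-fold, and 0.14 (-0.31 to 0.58) after the GC correction. The peak ran 158 bp past the gene end, the converging gene Aamp began 216 bp beyond that end, and the next peak lay 49 bp away. Aamp itself had 25.9 RPKM in spleen and 27.8 RPKM in LI, over 2 peaks, weighted by length, and the log2 ratio of its summed, unweighted peak values was -0.19. Signal of the 2 genes cannot be told apart at this boundary.

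**Figure D4:**
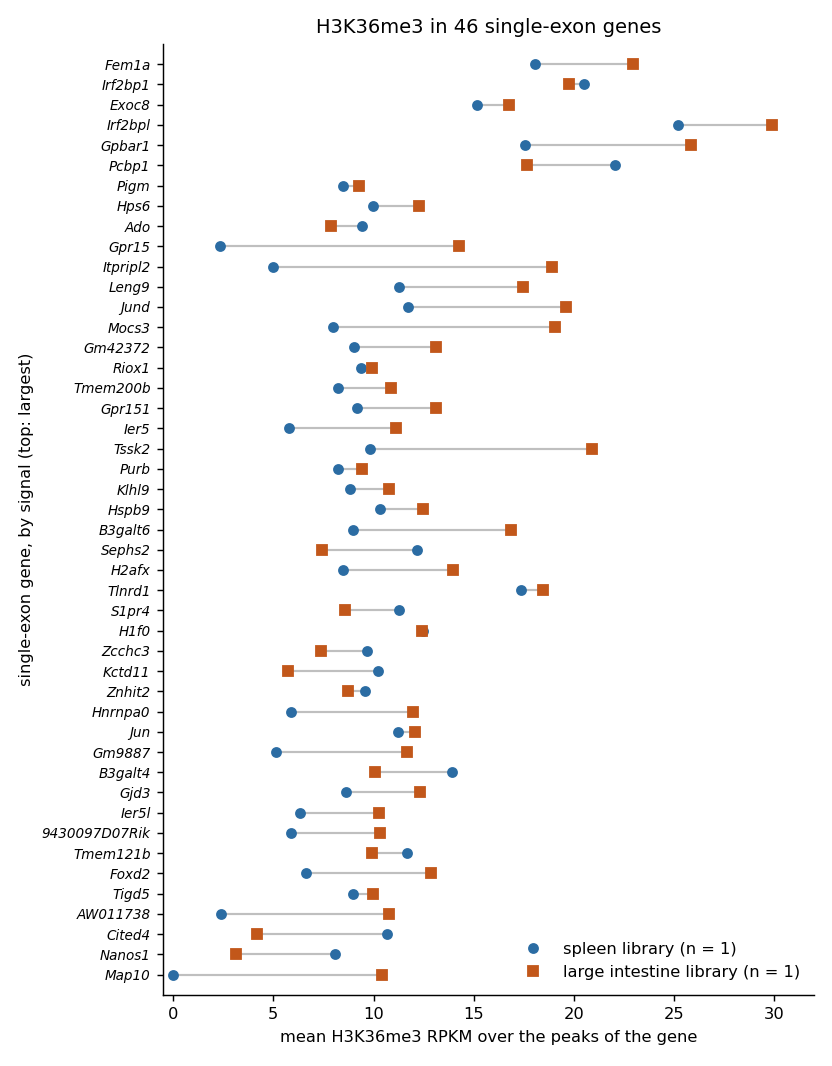
Mean RPKM over the peaks (x axis) of the 46 single-exon genes (y axis, ordered by value times length summed over both libraries), with 1 spleen library (circles) and 1 LI library (squares) joined by a line. LI lies right of spleen in 33 genes, and the longest lines towards LI belong to Itpripl2, Gpr15, Tssk2, Mocs3 and, listed at 0 in spleen, Map10.

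For the comparison of the tissues, peak values were summed per gene, and the log2 ratio of LI over spleen was taken relative to the library totals with 0.5 RPKM added, which understates the change of low genes. Genes needed 20 RPKM over both libraries. This filter was passed by 34 of the 46 members, and the 12 others were Gpr15, Ier5, Klhl9, Gm9887, Ier5l, 9430097D07Rik, Foxd2, Tigd5, AW011738, Cited4, Nanos1 and Map10. Member values were imprecise. At 200 bp covered per read, the members had a median of about 18.1 reads in spleen and 31.7 reads in LI, and the median counting error of the log2 ratio was 0.40, against 0.15 over all coding genes. The intervals cover counting error only.

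The 34 members had a median log2 ratio of 0.21 (binomial interval -0.10 to 0.44), with 22 higher in LI and 12 higher in spleen, while the median over 8493 coding genes was 0.0038. In multi-exon genes of like length the median was 0.086. More than 2-fold higher in LI were 3 of 34 members (8.82%), against 3.3% of all genes tested. More than 2-fold higher in spleen were 0 of 34, against 1.78%. The counting interval lay wholly above 0 in 7 members (20.6%), against 18.3% of all genes, and wholly below 0 in none, against 16.4%. The 7 were Itpripl2, Mocs3, Tssk2, Leng9, Gpbar1, Fem1a and Jund, of which only Itpripl2 and Mocs3 kept an interval above 0 after the correction for GC content.

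The ratio moved with base composition in the whole data set, and the members were GC-rich. The median GC content of member peaks was 60%, against 46.5% for all peaks, and 47 of the 69 lay in the top 10% of peaks by GC (above 54.1%). Among all peaks the median log2 ratio was -0.41 in the 10% with the lowest GC and 0.29 in the 10% with the highest. Of the 34 members, 24 fell in the top 10% of genes by GC, where their median log2 ratio was 0.23 beside 0.28 in 826 multi-exon genes, and 11 of the 24 lay above that value. After correction in 20 bins of GC the median of the 34 members was -0.073 (-0.32 to 0.14), so the lean towards LI was not kept. The interval then lay above 0 in 2 members, against 11.5% of all genes, and below 0 in 4 (Irf2bp1, Pcbp1, Kctd11 and Zcchc3), against 16.2%.

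**Figure D5:**
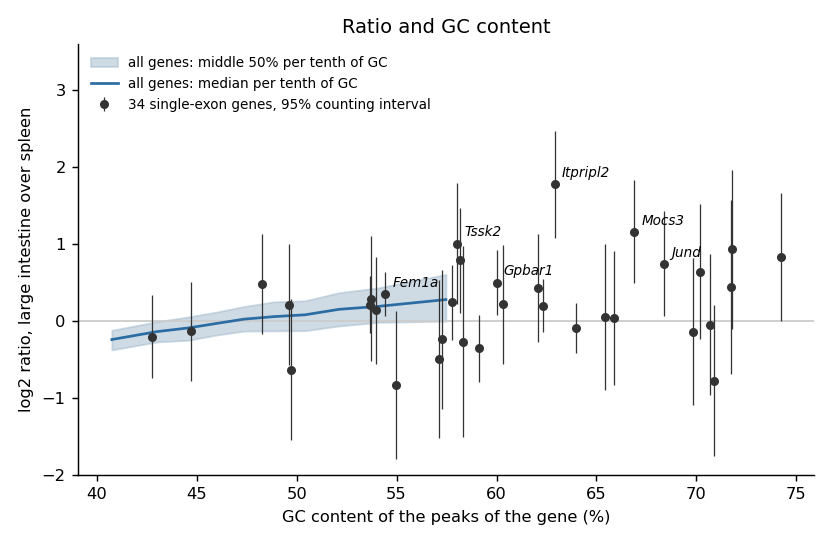
Log2 ratio of LI over spleen (y axis) against the GC content of the gene's peaks (x axis) for the 34 members that passed the filter (points with 95% counting intervals), with the median (line) and middle 50% (band) of all coding genes in 10 equal groups by GC. The line climbs from -0.24 to 0.28, and Itpripl2 and Mocs3 lie furthest above it.

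Itpripl2, named for its likeness to an interactor of the inositol trisphosphate receptor, showed the largest ratio of the 34. Its single 1138-bp peak (chr7:118489600-118490737) had 4.996 RPKM in spleen and 18.9 RPKM in LI, a log2 ratio of 1.77 (1.08 to 2.47), or 3.42-fold. After the GC correction it was 1.42 (0.70 to 2.13). The nearest coding gene was 17684 bp away and the nearest peak outside the gene 196783 bp away.

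Mocs3, an enzyme of molybdenum cofactor synthesis and of tRNA thiolation, had 7.99 RPKM in spleen and 19.1 RPKM in LI over a 900-bp peak wholly in coding sequence. Its log2 ratio was 1.16 (0.49 to 1.83), or 2.23-fold, and 0.80 (0.11 to 1.49) after the GC correction. Tssk2, a kinase gene known from testis, stood at 9.83 RPKM in spleen and 20.9 RPKM in LI, with a log2 ratio of 1.01 (0.22 to 1.79), and 0.65 (-0.17 to 1.47) after the GC correction. The Tssk2 peak began 160 bp before the gene and covered 86 bp of Dgcr2, which starts 75 bp upstream on the other strand and had a log2 ratio of 1.29 of its own. Leng9 rested on 11.2 RPKM in spleen and 17.5 RPKM in LI, with a log2 ratio of 0.79 (0.11 to 1.47), or 0.43 (-0.29 to 1.14) after the GC correction, and its body overlapped Leng8.

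Gpr15, the receptor known for guiding T cells into the large intestine, stayed below the filter with a sum of 16.6 RPKM. Its single peak of 1702 bp (chr16:58716860-58718561) had 2.33 RPKM in spleen and 14.2 RPKM in LI, or about 11.7 and 92.4 reads. The log2 ratio was 2.34 (1.60 to 3.08), or 5.06-fold, and 2.35 after the GC correction, since this peak had a GC content of only 45.4%. With 5 RPKM added in place of 0.5 it was 1.35. The peak covered 917 bp of the coding sequence of Gpr15, ran 573 bp past the gene end, and overlapped 777 bp of Cpox, a heme synthesis gene on the other strand. Cpox had 7 peaks with 10.99 RPKM in spleen and 16.5 RPKM in LI, and its log2 ratio was 0.63, so the Gpr15 peak was more LI-weighted than the gene it overlaps. The reads carry no strand, and which of the genes gave them cannot be told apart.

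The other receptors leaned less. Gpr151, an orphan receptor, had 9.18 RPKM in spleen and 13.1 RPKM in LI, with a log2 ratio of 0.29 (-0.52 to 1.11). S1pr4, a receptor for the lipid sphingosine 1-phosphate in lymphocytes, had 11.3 RPKM in spleen and 8.56 RPKM in LI, with a log2 ratio of -0.24 (-1.15 to 0.67). Neither interval left out 0.

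All 4 immediate early members had higher values in LI, but Jun turned to the side of the spleen under the GC correction. Jund, which encodes the AP-1 subunit JunD (chr8:70698949-70700616, plus strand), had 2 peaks averaging 11.7 RPKM in spleen and 19.6 RPKM in LI, with a log2 ratio of 0.74 (0.06 to 1.43). Jun, the gene of the founding AP-1 subunit, had 11.2 RPKM in spleen and 12.1 RPKM in LI over 1 peak of 422 bp, with a log2 ratio of 0.05 (-0.90 to 1.00). Jun and Jund are close relatives, yet peaks covered 13.2% of Jun and 47.2% of Jund.

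Ier5 and Ier5l, related immediate early response genes, were both under the filter. Ier5 had 5.76 RPKM in spleen and 11.1 RPKM in LI over a 1105-bp peak, with a log2 ratio of 0.84 (0.13 to 1.56). Ier5l had 6.31 RPKM in spleen and 10.3 RPKM in LI over 417 bp, with a log2 ratio of 0.62 (-0.53 to 1.77). The GC content of these 4 genes' peaks was high, between 65.4% (Jun) and 69.5% (Ier5). After the GC correction Jund stood at 0.38 (-0.33 to 1.098), Ier5 at 0.50 (-0.25 to 1.24), Ier5l at 0.27 and Jun at -0.30, and the interval included 0 in all 4.

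On the side of the spleen, no interval of the 34 members past the filter left out 0 before the GC correction. Among these 34 the lowest ratios were those of Kctd11, a cullin adaptor gene, with 10.2 RPKM in spleen and 5.71 RPKM in LI (log2 ratio -0.83, -1.79 to 0.12), and of Zcchc3, which encodes a nucleic acid-binding zinc finger protein, with 9.67 and 7.35 RPKM (-0.78, -1.76 to 0.20). Sephs2, which makes the selenium donor for selenoproteins, followed with 12.2 RPKM in spleen and 7.43 RPKM in LI (-0.63, -1.55 to 0.28). The uncorrected differences were within the counting error. After the GC correction Kctd11 was at -1.12 (-2.13 to -0.11) and Zcchc3 at -1.13 (-2.17 to -0.087), both past it, and Sephs2 was at -0.72 (-1.65 to 0.22). Before that correction the 2 peaks of Zcchc3 went opposite ways, with log2 ratios of -1.76 for the strongest, of 208 bp, and 0.44 for the other, of 400 bp. With its peaks weighted by length, Zcchc3 was at -0.42. The RPKM means given for these genes are weighted by length, while their main ratios come from unweighted sums.

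The remaining list members had no interval that left out 0. Hspb9, a small heat shock protein gene, had 10.3 RPKM in spleen and 12.5 RPKM in LI. Klhl9, a cullin adaptor, had 8.84 and 10.8 RPKM, and H2afx had 8.49 and 13.9 RPKM. Foxd2, a forkhead factor gene, had 6.65 and 12.9 RPKM over a 286-bp peak, or about 5.64 and 14.03 reads. Of these 4 genes, Klhl9 and Foxd2 did not pass the filter.

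The members with the least signal rested on very few reads. Cited4 had 10.7 RPKM in spleen and 4.196 RPKM in LI, Nanos1 had 8.10 and 3.14 RPKM, and the 200-bp peak of Map10 was listed at 0 in spleen and at 10.4 RPKM in LI, about 7.92 reads. No fold is given for Map10. In all 34 members without a peak of 1 kb, the reads of both libraries came to between 7.92 and 91.8 per gene, compared with 65.6 to 826 in the 12 members with one.

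Many members lay next to other coding genes. Another coding gene was found within 5 kb of 31 members, most often a converging gene downstream (11 members) or a diverging gene upstream (8 members), and 5 members overlapped another coding gene. In 3 members (Gpr15, Tssk2 and Gm9887) a peak itself reached into another coding gene. The 15 members with no coding gene within 5 kb had median values of 8.63 RPKM in spleen and 12.1 RPKM in LI, close to the 9.41 and 11.7 RPKM of the other 31. The part of the body covered by any peak was 20.8% in the former and 38.5% in the latter. Peaks assigned to neighbouring genes count here, and their part in this difference was not tested. In Tssk2, for instance, 99.1% of the 1388-bp body was covered, while its own peak was 555 bp long. Of 635 single-exon genes with no coding gene within 5 kb, 15 had a peak, or 2.36% (1.44 to 3.86%), and of the multi-exon genes of like length so placed, 3.95%.

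Promoters of the members were richer in CpG dinucleotides than those of the other single-exon genes. Promoter sequences of RefSeq (GRCm38.p6), from 250 bases before to 50 after the start, matched 39 of the 46 members and 644 of the 1115 single-exon genes without a peak. The median number of CpG dinucleotides in these sequences was 23 in members, 3 in single-exon genes without a peak and 15 in multi-exon genes. The motif GGGCGG, searched on both strands before the start, was present in 56.4% of members, 19.7% of single-exon genes without a peak, 46.1% of multi-exon genes and 45.01% of all coding genes. CCAAT, searched in the same way, was about as frequent in each group (35.9%, 41.5%, 35.5% and 35.7%).

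TATAAA, searched between 45 and 16 bases before the start on the strand of the gene, was found in 2 members (5.13%), in 9.01% of single-exon genes without a peak, and in 2.68% of multi-exon genes. It was present in 2.95% of all coding genes. The 2 members were Cited4 and Sephs2, and the 30 bases of each searched window are given with the motif in capitals (chr4:120666518-120666547, plus strand, and chr7:127274075-127274104, minus strand). A match describes the letters and is no evidence that a factor binds there.
Cited4: ggcgtggcgttcccgcctcttggTATAAAa
Sephs2: tgtcaatcacgctgtaTATAAAtagaggcc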

How the data were processed

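Per the labels and methods, single-end reads of 75 nt were aligned to mm10 with Bowtie2, peaks were called per tissue with MACS2 against the input, and the peaks of both tissues were merged with bedtools. The deposited values are RPKM: the authors scaled coverage tracks to RPKM and averaged them over each merged peak, although the table is labelled as raw counts. Products of value and peak length were whole in units of a fixed step of each library (100%, tolerance 0.05). How far reads were extended is not given in the sources used here, so no count test was run.

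Peaks were assigned by midpoint to GENCODE M21 genes with Python 3.11.15, numpy 2.4.6, pandas 2.3.3 and scipy 1.17.1. No peak passed a chromosome end of GRCm38 (0 of 21 chromosomes). The members, lists and comparisons were chosen with earlier results of these data known, as were sequence windows and motifs. Scripts were tested on simulated data. No p-value was computed. Intervals of ratios take 200 bp as covered per read and treat reads as independent molecules. Medians have binomial and shares Wilson intervals of 95%.

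Named were the 10 members with the largest signal, the 5 with the most peaks, the 5 with the longest peak, the 5 in each direction with the most extreme interval bound, all immediate early members, up to 5 of each other list, the 3 members with least signal, and the 3 single-exon genes most covered without meeting the rule (10 tied, of which 3 are given). Others named were chosen after their values were seen. Alternatives were other assignment rules, transcript rules, filters, pseudocounts, scalings, length windows and a GC correction. The single-exon genes of the immediate early list without a peak are not reported here by name.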

Additional observations from a re-analysis of the deposited data

How the results depend on the processing

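No paired analysis was possible because each tissue had 1 library. Of 93 recomputed summary values, 81 stayed within the interval of the reported value or within 1.5 times the reported count. This count judged the members' own values and not those of the comparison genes. Some values could not move, such as the members' share, width and signal under a wider length window. The count therefore does not measure how stable the differences from multi-exon genes were. The median log2 ratio of the members turned from 0.21 to -0.073 under the GC correction. That correction also left 1 of 34 members over 2-fold higher in LI and 2 higher in spleen, in place of 3 and 0. The shares over all genes were then 2.51% and 2.07%. The count over 2-fold in LI was 7 of 46 without the filter (Map10, listed at 0 in spleen, among them), against 4.79% of all genes. It was 1 of 34 with a pseudocount of 5, against 2.28%, and 0 of 8 with at least 50 RPKM, against 2.31%. Among members with no coding gene within 5 kb that passed the filter it was 1 of 10, against 4.12% of all genes so placed. The count over 2-fold in spleen was 2 of 46 without the filter, against 2.97% of all genes. It was 2 of 34 by the strongest peak of each gene, against 2.37%, and 1 of 34 with peaks of at least 10 RPKM, against 2.10%. The share of single-exon genes with a peak was 5.69% without near-identical families, against 15.5% of multi-exon genes of like length. Without genes that have a coding gene within 5 kb it was 2.36% (1.44 to 3.86%) against 3.95%. That gap was much smaller than the main one, 3.96% against 12.2%.

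The following alternatives were chosen after seeing the data. Counting intervals around the GC-corrected ratios lay above 0 in 2 of 34 members, against 11.5% of all genes, and below 0 in 4, against 16.2%. Leaving out genes overlapping another coding gene gave 4.52% with a peak, against 11.7%. Requiring 50 reads in place of 20 RPKM gave a median log2 ratio of 0.32. It also gave 4 of 24 members over 2-fold in LI, against 2.57% of all genes. Taking 75 bp per read narrowed the intervals of every gene, and they lay above 0 in 11 members and below 0 in 4. The share over all genes was not computed at 75 bp, so these counts show nothing particular to the members. Depth limited the ratios of members with narrow peaks most.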
